A study of Rattus norvegicus with 15 samples.

Results

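The 10 genes described here encode the enzymes with which liver cells make fatty acids from sugar and acetyl units, and regulators of that pathway: Fasn, Acaca, Acacb, Acly, Scd, Elovl6, Me1, Srebf1, Mlxipl and Thrsp. They were taken by name and not by any measured value. A probe belonged if the array files gave it the symbol of any of the 10 genes, with Scd written as Scd1. This gave 15 of the 45598 probes, 3 for Acaca, 2 each for Acacb, Elovl6 and Srebf1 and 1 for each remaining gene. After 1 probe was taken per gene, the set made up 10 of 17040 tested features.

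Hepatocytes export citrate from the mitochondrion, and the product of Acly cleaves it to acetyl-CoA, which the acetyl-CoA carboxylases turn into malonyl-CoA. Fatty acid synthase joins these units into palmitate with NADPH, and an elongase and a desaturase then turn palmitate into longer and unsaturated acids. In liver the genes of this pathway are transcribed under SREBP-1c, which responds to insulin, and ChREBP, which responds to sugar, and they are known as a group that follows feeding.

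The series compared the transcriptomes of hepatocytes that differ in ploidy. Liver cells of female Wistar rats, none of them given a treatment or carrying an allele that the labels name, were stained with the DNA dye Hoechst33342 and sorted into 3 fractions by DNA content (2c, 4c and 8c), 2c being that of a diploid cell before replication. There were 5 experiments, each with 1 array per fraction (15 arrays, n = 5 per fraction), on rats aged 12, 14, 6, 5 and 6 weeks in experiments 1 to 5. The number of rats behind an experiment, the gates and any removal of doublets are not given in the sources used here, and a 4c event can also be a diploid cell that has copied its DNA. All levels below are log2 signals of a probe relative to the 75th percentile of its array. They are therefore relative values within the RNA of 1 fraction, and in such bulk samples fewer cells of a type and less RNA per cell cannot be told apart.

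Between 39.5% and 47.3% of the probes lay well above background on an array, and the number of arrays limits the precision. All 12 hepatocyte markers were measured. Of the 8 adipocyte markers Adipoq, Plin1 and Retn were above background on no array, Cfd on 7 arrays and Cidea and Pparg on all 15. Markers of other liver cells moved with the DNA content. Of 8 tested markers each, 7 Kupffer, 6 stellate and 3 endothelial markers were lower in 8c than in 2c (limma, adjusted p under 0.05). Of all features 2.34% passed there in either direction. A tested marker had to be well above background on at least 5 arrays, and Cd163, Lrat and Lyve1 were so on 5. A marker high in 2c alone could thus enter, so the counts lean towards lower in 8c. The summed Kupffer level, over all 12 listed genes, ran from -0.37 to 3.91 in 2c and from -2.91 to -0.82 in 8c. Transcripts of pancreatic acinar cells, most of them for digestive enzymes, were abundant on 6 arrays, with a median over 25 genes of 1.33 (2c) and -1.43 (8c) in experiment 1, of 4.42 (2c), 1.12 (4c) and 3.36 (8c) in experiment 2 and of -1.58 (8c) in experiment 3. On the other 9 arrays it was -7.22 or lower. Experiments 1 and 2 lay on slide 1, experiments 4 and 5 on slide 2, and experiment 3 was divided, with 8c on slide 2.

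Lipogenic gene levels differed from one isolation to the next and not measurably with DNA content. None of the 10 genes passed in 8c against 2c, in 4c against 2c or in 8c against 4c (limma with the experiment as a block, adjusted p under 0.05), where 2.34%, 1.26% and 0.64% of all tested features passed. An unadjusted p under 0.05 was found for 3 genes (Elovl6, Fasn and Mlxipl) in 8c against 2c, for 1 (Mlxipl) in 4c against 2c and for 2 (Elovl6 and Acly) in 8c against 4c, against 15%, 15.9% and 7.8% of all features. The test for any difference among the 3 fractions passed 0 of the 10 genes and 2.26% of all features. The test for any difference among the 5 experiments passed 9 of 10, all but Acacb, against 37.4% of all features. The experiments accounted for a median of 94.7% of the sum of squares of a gene over the 15 arrays, from 54.5% for Mlxipl to 98.3% for Scd, while the median over all features was 54.6%. DNA content accounted for a median of 2.55%, against 9.39% over all features.

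**Figure D1:**
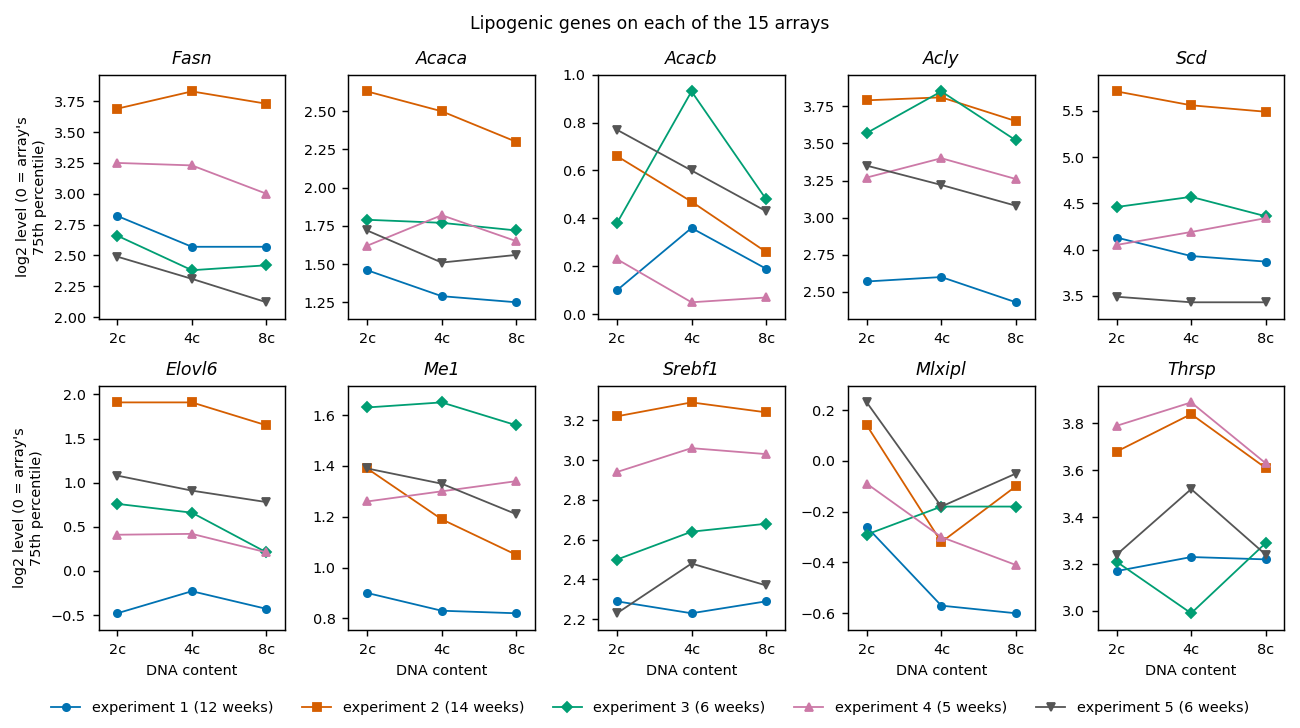
Level of each lipogenic gene on every array: the vertical axis is the log2 level relative to the array's 75th percentile, on a scale of its own in each panel, the horizontal axis is DNA content, and each line joins the 3 arrays of 1 experiment. By means experiment 2 was highest for 6 genes and experiment 1 lowest for 6, and the arrays overlapped in 21 of 40 pairs of neighbouring experiments. The same counts were not made over all features.

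**Figure D2:**
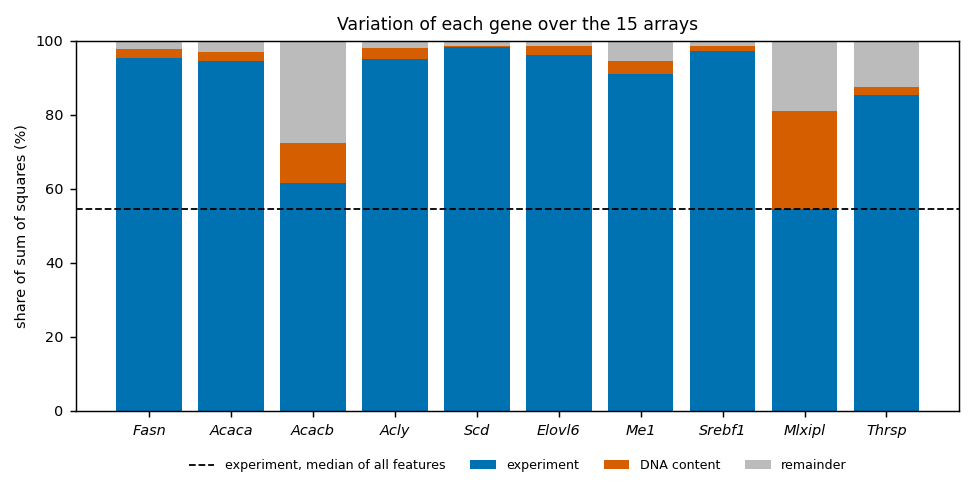
Share of the sum of squares over the 15 arrays (vertical axis, in %) that fell to the experiment, to DNA content and to the remainder for each gene; the dashed line marks the median share of the experiment over all features, 54.6%. The share of the experiment was at least 85.4% for 8 genes and was 61.6% for Acacb and 54.5% for Mlxipl.

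Among the enzymes of the main chain, Acly, whose product splits citrate into acetyl-CoA and oxaloacetate, had levels of 2.57, 3.79, 3.57, 3.27 and 3.35 in 2c of experiments 1 to 5, of 2.60, 3.81, 3.85, 3.40 and 3.22 in 4c and of 2.43, 3.65, 3.52, 3.26 and 3.08 in 8c. The 3 fractions overlapped over nearly their whole range, and in each of them experiment 1 was lowest. Within every experiment the 8c level of Acly was below the 4c level, with differences from -0.33 to -0.14. The fitted log2 difference of 8c against 4c was -0.19 (SE 0.07, 95% interval -0.34 to -0.04), which did not pass (adjusted p = 0.557, unadjusted p = 0.0198), and 4.68% of all features were lower in 8c than in 4c in all 5 experiments. Against 2c the 8c level was also lower in 5 of 5 experiments, with differences from -0.27 to -0.0065 and a fitted difference of -0.12 (SE 0.07, adjusted p = 0.44), and 7.96% of all features were lower in 8c in each experiment. The sign against 2c turned with unscaled values of the deposited table and in no other setting tried.

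The acetyl-CoA carboxylases make malonyl-CoA, that of Acaca in the cytosol for synthesis and that of Acacb at the mitochondrion, where malonyl-CoA restrains the uptake of fatty acids. Acaca had levels of 1.46, 2.63, 1.79, 1.62 and 1.72 in 2c, of 1.29, 2.50, 1.77, 1.82 and 1.51 in 4c and of 1.25, 2.30, 1.72, 1.65 and 1.56 in 8c of experiments 1 to 5. Experiment 2 stood above the other 4 in every fraction, and the fractions overlapped. The difference of 8c against 2c was -0.15 (SE 0.07, adjusted p = 0.378, lower in 4 of 5 experiments). Acacb ranged from 0.10 to 0.77 in 2c, from 0.05 to 0.93 in 4c and from 0.07 to 0.48 in 8c. Its 8c against 2c difference was -0.14 (SE 0.11, 95% interval -0.39 to 0.11, adjusted p = 0.627), lower in 3 experiments and higher in 2. Acacb was the gene with the widest spread inside an experiment, 0.55, which exceeded the range of 0.48 between the experiment means.

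Fasn encodes fatty acid synthase, which assembles palmitate. Its levels in experiments 1 to 5 were 2.82, 3.69, 2.66, 3.25 and 2.49 in 2c, 2.57, 3.83, 2.38, 3.23 and 2.31 in 4c and 2.57, 3.73, 2.42, 3.00 and 2.12 in 8c. The fractions overlapped, and 8c was below 2c in 4 of 5 experiments, with differences from -0.36 to -0.24, and above it by 0.05 in experiment 2. The fitted difference of -0.21 (SE 0.08, 95% interval -0.38 to -0.04), or 1.16-fold lower, did not pass (adjusted p = 0.234). Its unadjusted p of 0.0217 was among the 15% of all features under 0.05.

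Elovl6, the elongase that extends palmitate to stearate, showed the greatest fitted difference of the set in 8c against 2c. Its levels were -0.48, 1.91, 0.76, 0.41 and 1.08 in 2c, -0.23, 1.91, 0.66, 0.42 and 0.91 in 4c and -0.43, 1.65, 0.21, 0.21 and 0.78 in 8c of experiments 1 to 5. Here too the fractions overlapped, while 8c lay below 4c in all 5 experiments, with differences from -0.44 to -0.13, and below 2c in 4, experiment 1 being the exception. The difference was -0.25 against 2c (SE 0.08, 95% interval -0.44 to -0.06, adjusted p = 0.189) and -0.25 against 4c (SE 0.08, 95% interval -0.43 to -0.06, adjusted p = 0.502), each 1.19-fold. Between 4c and 2c the difference was -0.0027, and its sign turned under several settings.

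Scd encodes the desaturase that makes oleate from stearate. In experiments 1 to 5 it stood at 4.13, 5.71, 4.46, 4.05 and 3.49 in 2c, at 3.93, 5.56, 4.57, 4.19 and 3.43 in 4c and at 3.87, 5.49, 4.36, 4.34 and 3.43 in 8c. The 3 fractions of an experiment lay within 0.29 of each other and the experiment means within 2.13. The 8c against 2c difference was -0.07 (SE 0.08, 95% interval -0.25 to 0.12, adjusted p = 0.77) and became positive in 5 alternatives: the 75th percentile over all probes (0.01), unscaled values of the deposited table (0.15), the slide as the block (0.10), slide 2 alone (0.12) and the arrays without acinar transcripts (0.13). Me1, whose malic enzyme supplies NADPH for the synthase, ranged from 0.90 to 1.63 in 2c, from 0.83 to 1.65 in 4c and from 0.82 to 1.56 in 8c, with an 8c against 2c difference of -0.12 (SE 0.07, adjusted p = 0.45, lower in 4 of 5 experiments).

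Of the regulators, Srebf1, which encodes SREBP-1, was the gene with an 8c against 2c difference above 0. Its levels in experiments 1 to 5 were 2.29, 3.22, 2.50, 2.94 and 2.23 in 2c, 2.23, 3.29, 2.64, 3.06 and 2.48 in 4c and 2.29, 3.24, 2.68, 3.03 and 2.37 in 8c. The groups overlapped, and 8c lay above 2c in 5 of 5 experiments, by 0.0058 to 0.18. The fitted difference of 0.09 (SE 0.06, 95% interval -0.05 to 0.22) did not pass (adjusted p = 0.562), and 7.27% of all features were higher in 8c in all 5 experiments.

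Mlxipl, which encodes the sugar-responsive factor ChREBP, had levels of -0.26, 0.14, -0.29, -0.09 and 0.23 in 2c, of -0.57, -0.32, -0.18, -0.30 and -0.18 in 4c and of -0.60, -0.10, -0.18, -0.41 and -0.05 in 8c. In 4 of 5 experiments 2c was the highest of the 3 fractions, and in experiment 3 the lowest, with overlap between groups. The differences from 2c were -0.26 in 4c (SE 0.09, 95% interval -0.46 to -0.06, adjusted p = 0.198) and -0.21 in 8c (SE 0.09, 95% interval -0.41 to -0.02, adjusted p = 0.293). DNA content took 26.5% of its sum of squares, the greatest share among the 10 genes. Thrsp, the Spot 14 gene, whose product acts with the lipogenic enzymes, ranged from 3.17 to 3.79 in 2c, from 2.99 to 3.89 in 4c and from 3.22 to 3.63 in 8c, and its 8c against 2c difference of -0.02 (SE 0.09, 95% interval -0.22 to 0.18) had an adjusted p of 0.938.

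**Figure D3:**
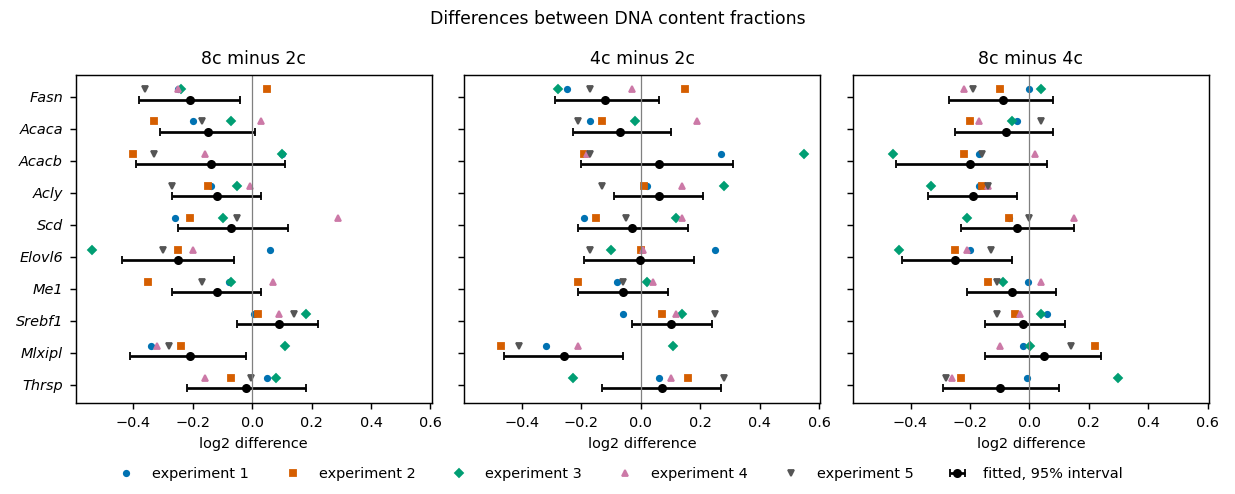
Log2 differences between fractions (horizontal axis) for each lipogenic gene: coloured points are the 5 experiments and black points the fitted differences with 95% intervals. No gene passed in any panel; in 8c minus 2c the fitted values run from -0.25 to 0.09 and 9 of 10 lie below 0.

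Across the set the fitted 8c against 2c difference lay below 0 for 9 of 10 genes, with a median of -0.13, whereas over all features 55.1% lay below 0 and the median was -0.02. In each experiment the median over the 10 genes was negative, at -0.11, -0.23, -0.06, -0.08 and -0.22. The medians over all features were -0.04, -0.00082, -0.02, 0.02 and -0.02. The count of genes below 0 was 9 with quantile normalization, 8 with the median as the scaling point, 7 with the 75th percentile over all probes and 1 (Elovl6) with the deposited values unscaled, where the median of all features moved up to 0.19. For 4c against 2c 6 of 10 lay below 0 with a median of -0.01, against 56.9% and -0.03 over all features. For 8c against 4c 9 of 10 lay below 0 with a median of -0.09, against 48.8% and 0.0050. The comparisons share arrays, so these medians are not independent of each other. The 95% intervals of 8c against 2c ran from -0.44 at the lowest to 0.22 at the highest. Those of Elovl6, Fasn and Mlxipl, which are not adjusted for the number of features, lay below 0.

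Markers of the zones of the liver lobule moved with DNA content beside these values. Of 11 tested pericentral markers 8 passed as lower in 8c than in 2c (adjusted p under 0.05), with a median over the list of -1.19. The others, Axin2 (-0.95), Tbx3 (-0.74) and Rnf43 (-0.22), were also lower but did not pass. Of 12 periportal markers 4 passed as higher, with a median of 0.26, and only Ctsc (-0.02) had a difference below 0. Of all features 2.34% passed in either direction. Neither their part nor that of the Kupffer and other cell markers in the small lipogenic differences was tested. Adipocytes are another lipogenic cell, and 3 of 8 of their markers were tested. Cfd passed as lower in 8c than in 2c, being above background on 7 of 15 arrays. Cidea (-0.04, adjusted p = 0.934) and Pparg (-0.48, adjusted p = 0.119), both above background on all 15, did not pass. The summed adipocyte level ran from -1.98 to -0.62 in 2c, from -2.17 to -1.58 in 4c and from -2.22 to -1.61 in 8c.

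The 8c against 2c difference showed no measurable dependence on the age of the rats either. Whether the levels themselves follow age was not tested, because age does not vary within an experiment. With the 8c against 2c difference allowed to change with age, 0 of the 10 genes and 0% of all features passed, and 4.81% of all features had an unadjusted p under 0.05, which 0 of the 10 genes had. Fitted slopes ran from -0.04 per week for Scd to 0.03 per week for Fasn and Elovl6, over 5 experiments.

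The differences between experiments were larger. The means of Elovl6 over the 3 fractions were -0.38 ± 0.13, 1.82 ± 0.15, 0.54 ± 0.29, 0.35 ± 0.12 and 0.92 ± 0.15 in experiments 1 to 5 (SD, n = 3 fractions of 1 isolation), a range of 2.20 or 4.60-fold (limma moderated F-test, adjusted p = 4.25e-06). Those of Scd were 3.98 ± 0.14, 5.59 ± 0.11, 4.46 ± 0.11, 4.19 ± 0.15 and 3.45 ± 0.03, a range of 2.13 or 4.39-fold (adjusted p = 4.89e-06). In both, experiment 2 was highest, and the arrays of neighbouring experiments overlapped for 4 and 3 in Elovl6 and for 1 and 4 in Scd, with no other overlap between neighbours.

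Fasn ranked 5, 3, 1, 4 and 2 from the lowest to the highest experiment, with means of 2.31, 2.49, 2.65, 3.16 and 3.75, a 2.72-fold range (adjusted p = 2.11e-05). Experiments 5 and 3 and experiments 3 and 1 overlapped. Acly ran from 2.53 in experiment 1 to 3.75 in experiment 2 (2.32-fold, adjusted p = 3.15e-05), Acaca from 1.33 to 2.48 in the same experiments (2.21-fold, adjusted p = 0.000115) and Srebf1 from 2.27 to 3.25 (1.97-fold, adjusted p = 3.76e-05). Acly, Acaca, Elovl6 and Srebf1 thus had the same lowest and highest experiment by their means, while Fasn and Scd were lowest in experiment 5. The arrays of experiment 2 overlapped those of experiment 3 for Acly, and those of experiment 1 overlapped experiment 5 for Srebf1.

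Me1 had its lowest mean in experiment 1, 0.85, and its highest in experiment 3, 1.61 (1.69-fold, adjusted p = 0.00132), and Thrsp its lowest in experiment 3, 3.16, and its highest in experiment 4, 3.77 (1.52-fold, adjusted p = 0.00532). Mlxipl passed narrowly (1.39-fold range, adjusted p = 0.0475) and Acacb did not (1.40-fold range, adjusted p = 0.0578). In these 2 genes all neighbouring experiments overlapped. The median range between experiment means over the 10 genes was 1.06, or 2.09-fold, against 0.57, or 1.48-fold, over all features. The 3 fractions of an experiment come from 1 isolation and are not separate animals, so these p-values compare the isolations at hand.

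By means, experiment 1 was lowest and experiment 2 highest for 4 of the 10 genes. These experiments used the rats of 12 and 14 weeks, and all 6 of their arrays lay on slide 1. The part of age in the differences between experiments was not tested. Every array of experiment 2 was above every array of experiment 1 for 8 of 10 genes, the exceptions being Acacb and Mlxipl. The share of all features with such an order or such a separation was not counted, so this does not mark the set off from other genes. Of all features 37.4% passed for experiment. The step was 2.39, 2.14 and 2.08 in 2c, 4c and 8c for Elovl6, 1.58, 1.63 and 1.63 for Scd and 1.22, 1.21 and 1.22 for Acly. For Fasn it was 0.87, 1.26 and 1.17, for Me1 0.49, 0.36 and 0.22 and for Acacb 0.56, 0.11 and 0.06, so its evenness over the fractions differed between genes. Within slide 1 alone 6 of 10 genes passed for experiment, against 5.77% of all features, and within slide 2 alone 0 of 10, against 0.563%.

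The acinar transcripts differed between the same experiments. All 3 arrays of experiment 2, where 6 of the 10 genes were highest, carried them, and so did 2 of 3 arrays of experiment 1, where 6 were lowest. The 4c array of experiment 1 had an acinar median of -8.82. Elovl6 stood at -0.23 on it and at -0.48 and -0.43 on the 2c and 8c arrays of that experiment, Acly at 2.60 against 2.57 and 2.43 and Scd at 3.93 against 4.13 and 3.87. Without the 6 arrays with acinar transcripts 0 of the 10 genes and 2.94% of all features passed for experiment, with the lowest adjusted p at 0.0506 for Scd, and 0 arrays of experiment 2 remained. The part of the acinar RNA in the differences between experiments was not tested.

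Neighbouring steps of the pathway were described by 5 further lists. Over 67 tested genes in the lists for citrate, acetyl-CoA and NADPH supply, sugar entry, elongation and desaturation, triglyceride synthesis and regulation, 0 passed in 8c against 2c, 1 in 4c against 2c and 0 in 8c against 4c, while 36 (53.7%) passed for experiment, against 37.4% of all features. The gene that passed was Insig2, which encodes an anchor that holds SREBP in the endoplasmic reticulum. Its levels in experiments 1 to 5 were 2.21, 1.56, 1.42, 1.20 and 1.75 in 2c, 1.64, 1.09, 0.94, 0.91 and 1.53 in 4c and 1.67, 1.28, 1.10, 1.11 and 1.54 in 8c. It was lowest in 4c in each experiment, with differences from 2c of -0.41 in 4c (SE 0.07, adjusted p = 0.039, 1.32-fold) and of -0.29 in 8c (SE 0.07, adjusted p = 0.0826), both lower in 5 of 5 experiments. The difference in 4c stayed below 0 in all 37 alternatives, but the call was lost in 30 of them, among them the median as the scaling point (adjusted p = 0.0546), normexp (0.0653), the experiment as a random block (0.116), each slide alone (0.257 and 0.712) and the loss of any single experiment (0.052 to 0.192). The 37 are not all distinct. The fit on experiments within 1 slide is the fit without experiment 3. The slide beside the replicate block gives the same differences as leaving out the 8c array of experiment 3.

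**Figure D4:**
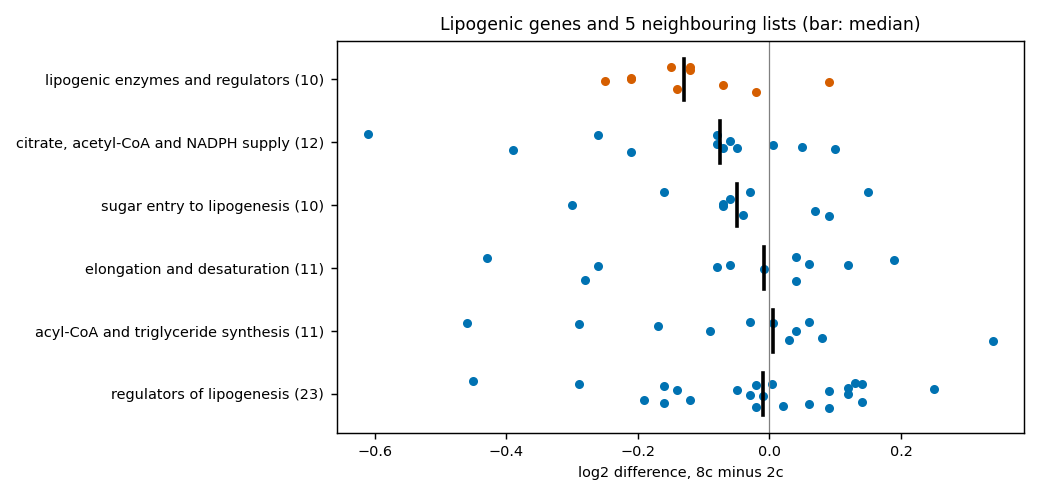
Log2 difference of 8c minus 2c (horizontal axis) for each gene of the lipogenic set and of 5 lists of neighbouring steps, with the number of tested genes in brackets and a bar at the median; the vertical scatter within a list carries no meaning. Medians lie between -0.13 for the lipogenic set and 0.0058 for triglyceride synthesis.

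Of the 12 genes of citrate, acetyl-CoA and NADPH supply 0 passed between fractions and 7 for experiment (37.4% over all features), with a median 8c against 2c difference of -0.08. Acss2, which makes acetyl-CoA from acetate, had the greatest difference there, with levels of -0.23, -0.50, -0.26, -0.12 and 0.63 in 2c, -0.75, -0.68, -1.15, -0.57 and 0.64 in 4c and -0.76, -1.36, -0.67, -0.89 and 0.15 in 8c of experiments 1 to 5. It was lower in 8c in 5 of 5 experiments (-0.61, SE 0.15, 1.53-fold, adjusted p = 0.0658) and missed the threshold.

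Of 10 genes of sugar entry 8 passed for experiment, of 11 of elongation and desaturation 7, of 11 of acyl-CoA and triglyceride synthesis 3 and of 23 regulators 11, beside 37.4% of all features, with 8c against 2c medians of -0.05, -0.0077, 0.0058 and -0.01. The genes with the smallest unadjusted p in 8c against 2c were, for sugar entry, Dlat, a subunit of pyruvate dehydrogenase (-0.30, adjusted p = 0.08), and Khk, the fructose kinase (0.15, adjusted p = 0.419). For elongation and desaturation they were Fads6 (-0.26, adjusted p = 0.342) and Elovl1, an elongase of saturated acids (0.12, adjusted p = 0.465). For triglyceride synthesis they were Gpam, the first acyltransferase of the pathway (-0.29, adjusted p = 0.131), and Lpin2, a phosphatidate phosphatase (-0.46, adjusted p = 0.124).

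The profile of the set over the arrays was compared with that of other genes through the mean of the 10 standardised levels. Over 15 arrays, which come from 5 isolations with 3 arrays each, Pearson's r was highest among 10906 other genes for Ethe1, a mitochondrial sulfur dioxygenase (0.89), Rex1bd (0.88), Cluap1, a ciliary transport protein (0.88), Scp2, a sterol carrier (0.88), and Afmid, an enzyme of tryptophan breakdown (0.87). The set itself was loosely knit: over its 45 pairs r had a median of 0.50 and ran from -0.38 to 0.89, with 40 above 0. After the mean of each experiment was removed the median was 0.26, from -0.55 to 0.78, with 30 of 45 above 0. On that scale the genes most like the set were Nsdhl (0.94) and Hsd17b7 (0.92), each an enzyme of sterol synthesis, Arhgef19 (0.91), Rfc1, a clamp loader subunit (0.90), and C2cd2 (0.90).

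The lowest correlation of all belonged to Cpt1a, which was therefore chosen after its values were seen. Socs2, Htra1, Id1 and Clic5 followed at -0.90 each. After the experiment means were removed the lowest were Hrob (-0.92), Traip (-0.86), Zwilch (-0.86), Kif18b (-0.83) and Nsd2 (-0.82). Cpt1a encodes the carnitine palmitoyltransferase that admits fatty acids to mitochondrial oxidation and that malonyl-CoA inhibits. Its levels in experiments 1 to 5 were 1.06, -0.80, 0.40, 0.33 and 0.35 in 2c, 1.07, -0.80, 0.04, 0.46 and 0.60 in 4c and 1.28, -0.87, 0.46, 0.41 and 0.52 in 8c. All 3 arrays of experiment 1 lay above and all 3 of experiment 2 below every other array. By experiment means this was the reverse of Elovl6, Acly, Acaca and Srebf1, of which Acly and Srebf1 had arrays of other experiments within the range of those ends. The correlation with the set was -0.96 over the 15 arrays and -0.37 after the experiment means were removed, and was thus weaker within isolations than over all arrays. Cpt1a did not pass in 8c against 2c (0.09, SE 0.09, adjusted p = 0.703) and passed for experiment (adjusted p = 1.82e-05).

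**Figure D5:**
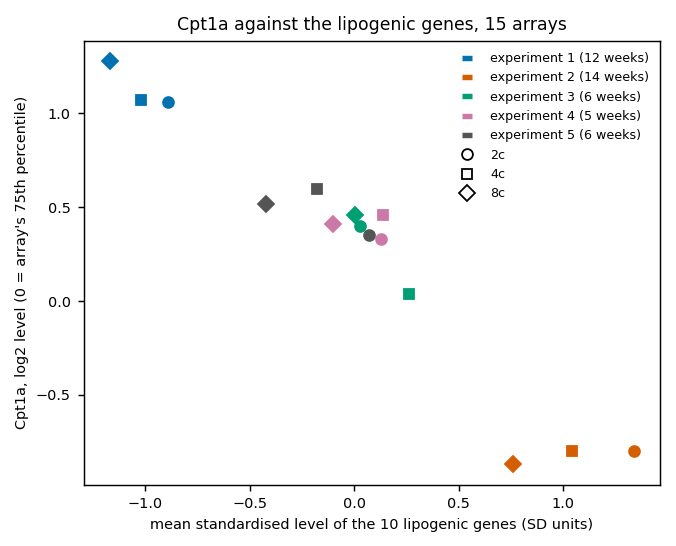
Cpt1a level on each array (vertical axis, log2 relative to the array's 75th percentile) against the mean standardised level of the 10 lipogenic genes (horizontal axis, in SD units); colour marks the experiment and shape the DNA content. Experiment 1 sits at the upper left, experiment 2 at the lower right and experiments 3 to 5 between them, and r over the 15 arrays was -0.96.

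Pklr, the liver pyruvate kinase, which makes pyruvate from sugar carbon, was also picked out after its values were seen. Its means in experiments 1 to 5 were 0.92, 1.68, 1.07, 1.59 and 0.62, so that experiments 4 and 2 stood highest, as they did for Fasn. Without the arrays with acinar transcripts Cpt1a did not pass for experiment. That fit held no array of experiment 2 and only the 4c array of experiment 1, where Cpt1a stood at 1.07. On the other arrays kept, Cpt1a ran from 0.04 to 0.60. The part of the acinar RNA in the Cpt1a levels was not tested. The feeding state and the time of day of the isolations are not given in the sources used here, and their part was not tested.

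All 15 lipogenic probes were well above background on all 15 arrays, and genes with several probes allowed a check of the values above, each gene being represented by its brightest probe. The further probes were dimmer. Their mean levels were -2.07 for Elovl6, -0.26 for Srebf1, -4.52 for Acacb and -2.49 and -4.11 for Acaca. Those of the chosen probes were 0.65, 2.70, 0.40 and 1.77. For Elovl6 the second probe, on rn4 chr2:227047594-227052367, gave -0.32 in 8c against 2c (SE 0.18, adjusted p = 0.466), the same sign as the first. For Acacb the second probe, on chr12:43388775-43389414, gave -0.45 (SE 0.18, adjusted p = 0.265) and for Acaca the other probes gave -0.09 and -0.40. For Srebf1 the second probe gave -0.07 (SE 0.19, adjusted p = 0.912), the opposite sign to the 0.09 of the first, so the sign of the small Srebf1 difference depended on the probe. In the F-test for experiment, fitted by single probes, the second Elovl6 probe (adjusted p = 0.000606) and the Acaca probe with -0.40 (0.0114) passed. The Acaca probe with -0.09 (0.151) and the second probes of Srebf1 (0.0574) and Acacb (0.095) did not. In that fit the Mlxipl probe missed as well (0.0522). The positions that span more than the 60 bases of a probe reach over genome sequence that the probe lacks, and no annotation of rn4 was used here to name the exon.

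For the 3 genes below, the further probe whose 8c against 2c difference lay farthest from that of the chosen probe is shown, 5′ to 3′ as the array files give them.
Srebf1, second probe, rn4 chr10:46463470-46463986, minus strand: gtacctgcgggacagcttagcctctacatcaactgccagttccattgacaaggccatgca
Acacb, second probe, rn4 chr12:43388775-43389414, minus strand: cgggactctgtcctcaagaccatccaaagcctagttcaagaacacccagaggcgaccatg
Acaca, probe with the lower value, rn4 chr10:72499952-72500011, plus strand: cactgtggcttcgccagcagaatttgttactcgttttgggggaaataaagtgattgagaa
The chosen probes map to rn4 chr10:72678945-72679004 for Acaca, chr12:43387437-43387496 for Acacb, chr10:89420943-89421002 for Acly, chr1:249458860-249458919 for Scd, chr2:227054046-227054105 for Elovl6, chr8:91839922-91839981 for Me1, chr10:46462235-46462294 for Srebf1 and chr1:154651216-154651275 for Thrsp, and the files give no position for those of Fasn and Mlxipl.

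The promoters of the set were read from RefSeq (GRCr8), where 7 of the 10 genes had an entry, with 9 windows of the 250 bases before a transcription start. Any part of promoter elements in the differences between isolations was not tested. The search covered, on both strands, the CCAAT box (CCAAT), the GC box (GGGCGG), the E-box CACGTG, which ChREBP and USF can bind, and TCACNCCAC, the core of a sterol response element. No matches overlapped in the windows of these genes. A CCAAT box was found in 5 of the 7 genes and in 34% of 33469 windows of the same length, and a GC box in 4 of 7 and in 30.5%. A gene counted if any of its windows held the box, while the shares are over single windows, so these are unlike measures. Neither CACGTG nor TCACNCCAC was found in the 9 windows, where 5.59% and 0.974% of all windows hold them, which says only that these letters are not in these windows.

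The windows are shown for the gene of the regulator, with both its starts, and for an enzyme with and an enzyme without such boxes, with CCAAT and GC boxes of either strand in capitals.
Srebf1, upstream start, GRCr8 chr10:45529165-45529414, minus strand: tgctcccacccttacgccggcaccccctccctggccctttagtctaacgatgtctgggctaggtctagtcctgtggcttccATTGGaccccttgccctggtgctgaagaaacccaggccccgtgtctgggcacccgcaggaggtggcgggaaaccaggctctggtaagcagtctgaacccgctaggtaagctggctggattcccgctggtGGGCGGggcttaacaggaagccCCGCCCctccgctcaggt
Srebf1, downstream start, GRCr8 chr10:45519011-45519260, minus strand: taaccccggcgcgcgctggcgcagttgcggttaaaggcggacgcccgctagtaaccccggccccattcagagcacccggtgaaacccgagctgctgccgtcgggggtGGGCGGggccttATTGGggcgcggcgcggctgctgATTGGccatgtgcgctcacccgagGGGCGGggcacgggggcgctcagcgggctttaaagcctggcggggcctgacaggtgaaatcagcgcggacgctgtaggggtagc
Acly, GRCr8 chr10:85963632-85963881, minus strand: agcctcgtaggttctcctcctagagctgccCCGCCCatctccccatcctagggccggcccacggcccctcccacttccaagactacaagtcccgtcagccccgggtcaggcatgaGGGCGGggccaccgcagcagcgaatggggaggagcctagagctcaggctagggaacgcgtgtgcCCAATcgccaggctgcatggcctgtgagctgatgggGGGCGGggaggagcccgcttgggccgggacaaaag
Scd, GRCr8 chr1:253231732-253231981, minus strand: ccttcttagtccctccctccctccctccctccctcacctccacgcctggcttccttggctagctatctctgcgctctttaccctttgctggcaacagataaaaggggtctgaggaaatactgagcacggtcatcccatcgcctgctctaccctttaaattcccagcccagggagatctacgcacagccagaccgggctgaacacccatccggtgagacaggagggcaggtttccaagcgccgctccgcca
The downstream Srebf1 window held 2 CCAAT and 2 GC boxes and the upstream window 1 and 2, while the Acly window held 1 and 3 and the Scd window 0 of each.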

How the data were processed

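RNA of 15 sorted hepatocyte fractions was hybridised to one-colour arrays, read with Agilent Feature Extraction 11.5.1.1 per the file headers (10.7.3.1 per the submitters' processing notes). The deposited files give each spot's intensity on a linear scale, background-subtracted and spatially detrended by the authors, with no normalization between arrays, and rn4 positions. The deposited value table holds the same linear intensities averaged per probe, unnormalized (at least 99.2% of values within 1%).

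Control spots and outlier spots (264 to 539 per array) were dropped and spots averaged to 45598 probes. The deposited signals were taken to log2, less each array's 75th percentile over the 16194 probes that every array measured well above background. Probes were named through accession (21109), symbol (6684) or synonym (424) in the reference, or kept the file's name (17381). Features well above background on at least 5 arrays were tested, with the brightest probe per gene. No array dropped out of a fit. limma 3.58.1 (R 4.3.3) fitted DNA content with the experiment as a block, with Benjamini-Hochberg adjustment over 17040 features. The fractions of an experiment come from 1 isolation, and same-experiment arrays deviated together (median r 0.59 over 15 pairs, lowest 0.04, against -0.16 over 90 other pairs). The scripts were tested on simulated data.

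The 10 genes, the lists and the alternatives were chosen with earlier results of these data known. All 10 genes are named whatever their values. Of each other pathway list up to 4 genes that pass between fractions are named, or the 1 or 2 with the smallest unadjusted p for 8c against 2c where none passes, and the 5 genes most like the set. A gene that this rule names is not reported here. Figures were drawn with matplotlib 3.10.9.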

Additional observations from a re-analysis of the deposited data

Results flagged for a closer look

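In 60 groups of 5 values (levels of a gene in a fraction, or its difference in the 5 experiments), 3 values stood far from the other 4. Chance alone marks about 1 in 20 groups.

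The level of Acaca, the cytosolic acetyl-CoA carboxylase, was 2.63 in 2c of experiment 2 and between 1.46 and 1.79 in 2c of the other experiments. The 4c and 8c arrays of experiment 2 were also the highest of their fractions for this gene.

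The difference of Acly, the citrate lyase, between 8c and 4c was -0.33 in experiment 3 and between -0.17 and -0.14 elsewhere. In experiment 3 the 8c array lay on slide 2 and the 4c array on slide 1, and the 8c array carried acinar transcripts while the 4c array did not.

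The difference of Mlxipl, the ChREBP gene, between 8c and 2c was 0.11 in experiment 3 and between -0.34 and -0.24 elsewhere. It compares the same 8c array with an array of slide 1.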

How the results depend on the processing

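None of the 10 genes passed between fractions under any alternative run. None passed for a change of the 8c against 2c difference with age, wherever that was fitted. The pairing of arrays by experiment comes from the labels' shared isolations. With no replicate block the counts of genes passing stayed at 0 in each comparison of fractions, and over all features they fell from 399, 215 and 109 to 39 for 8c against 2c, 3 for 4c against 2c and 0 for 8c against 4c. The block changed no call on the 10 genes. The 9 genes passing for experiment became 7 to 10 without single experiments or arrays, 6 within slide 1, 0 within slide 2, 0 without the arrays with acinar transcripts and 4 with the deposited values unscaled. Those last values carry each array's brightness, and the medians over the set became 0.08 for 8c against 2c and 0.16 for 4c against 2c. Leaving out single experiments or arrays gave medians from -0.16 to -0.09, from -0.07 to 0.002 and from -0.11 to -0.06. Without experiment 1, Me1 missed for experiment (adjusted p = 0.058) and so did Mlxipl (0.327); without experiment 2, Acaca (0.0512) and Mlxipl (0.0846) did; Mlxipl also missed without experiment 4 (0.0681) and 5 (0.153).

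Counts over all features moved in 8c against 2c to 183 with normexp, 228 with no filter on dim probes, 218 with probes above background on all arrays, 227 with unscaled values, 91 with the slide as the block, 240 with the slide beside the replicate block, 0 within either slide and 0 without the acinar arrays. For 4c against 2c these settings gave 54, 0, 126, 113, 5, 110, 0, 0 and 0, and for 8c against 4c 65, 76, 40, 99, 41, 66, 1, 0 and 0. Replicate block fits on experiments within 1 slide gave 226, 20 and 53. Without single experiments they ran from 103 to 277, from 3 to 189 and from 51 to 128, with the lowest for 8c against 2c (103) and 4c against 2c (3) without experiment 5. For experiment the 6378 features became 2676 with the slide as a term, 983 and 96 within slides 1 and 2, 501 without the acinar arrays and 3501 to 7915 without single experiments. Without single arrays the counts of the 3 comparisons ran from 187 to 525, from 6 to 543 and from 64 to 142. The median of all features in 8c against 2c moved from -0.0223 to -0.1081 with normexp, -0.1463 with no filter and 0.1927 with unscaled values.

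Single gene values, none of which passed, changed sign as follows, and the cause was not tested. Quantile normalization gave 0.02 for Elovl6 in 4c against 2c, and normexp 0.01. The median as scaling point gave 0.0053 for Scd and 0.03 for Elovl6 in 4c against 2c, and 0.02 for Thrsp in 8c against 2c. The 75th percentile over all probes gave 0.0024 for Acaca, 0.04 for Scd, 0.07 for Elovl6 and 0.01 for Me1 in 4c against 2c, and 0.01 for Scd and 0.06 for Thrsp in 8c against 2c. Unscaled values gave, in 8c against 2c, 0.0043 for Fasn, 0.07 for Acaca, 0.08 for Acacb, 0.09 for Acly, 0.15 for Scd, 0.10 for Me1, 0.0022 for Mlxipl and 0.19 for Thrsp. In 4c against 2c they gave 0.06 for Fasn, 0.11 for Acaca, 0.15 for Scd, 0.17 for Elovl6 and 0.12 for Me1, and in 8c against 4c 0.0005 for Scd and 0.02 for Srebf1. The mean of a gene's probes gave -0.08 for Acacb in 4c against 2c. The slide as the block gave 0.10 and 0.13 for Scd in 8c against 2c and 8c against 4c. Within slide 1, 4c against 2c was 0.05 for Elovl6 and -0.0038 for Thrsp. Within slide 2, Acacb was -0.17 and Scd 0.04 in 4c against 2c, and Scd 0.12 in 8c against 2c and 0.08 in 8c against 4c. On experiments within 1 slide, Acacb was -0.07 and Elovl6 0.02 in 4c against 2c, and Scd 0.0043 in 8c against 4c. Without the acinar arrays Scd was 0.13 in 8c against 2c, 0.07 in 4c against 2c and 0.06 in 8c against 4c, Me1 0.0008 in 4c against 2c and Mlxipl -0.05 in 8c against 4c. Without single experiments or arrays the ranges that crossed 0 were -0.07 to 0.12 for Acacb, -0.09 to 0.02 for Scd and -0.07 to 0.05 for Elovl6 in 4c against 2c, -0.09 to 0.01 for Thrsp in 8c against 2c, and -0.11 to 0.0043 for Scd, -0.05 to 0.01 for Srebf1 and -0.0007 to 0.10 for Mlxipl in 8c against 4c. The other alternatives, among them the deposited table with scaling, which was added after the data were seen, turned no sign.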
